A study of Mus musculus with 21 samples.

Results

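The transcripts of 10 scavenger and efferocytosis receptors were followed in inflammatory monocytes (IMs): Mrc1, Msr1, Marco, Cd163, Stab1, Olr1, Scarb1, Mertk, Axl and Timd4. The rule took rows by symbol, for a list drawn up with earlier results of these data known, and all 10 had a row among the 23420 gene symbols of the count table. IMs had been sorted by flow cytometry as live CD45+ CD11b+ cells high in Ly6C and negative for Ly6G, and RNA-Seq gave 21 libraries. Siglec-F marks alveolar macrophages and eosinophils, and the study's methods state that Siglec-F+ cells were left out in sorts of lung tissue. The legend of its gating figure, on tumor samples and healthy bone marrow, also gates on cells without Siglec-F. Tumor IMs (TIMs) of the LN2E1 model (cell line KAL-LN2-E1, 500000 cells per mouse placed orthotopically into the lung of adult FVB mice) came from primary tumors (n = 5) and from lymph node metastases (n = 5), and TIMs of the LN4K1 model (300000 cells per mouse given into the vein of DBA2 mice) came from the lungs (n = 5). The controls were bone marrow IMs (BM IMs) of naive FVB mice (n = 3) and naive DBA2 mice (n = 3), which carried no tumor and received no cells. Strain, cell line and route of injection differed together between the 2 models, and the controls differed from TIMs in tissue as well as in tumor, so these cannot be told apart.

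Scavenger receptors are surface proteins of macrophages and endothelial cells that bind and take up modified lipoproteins, microbial products and debris. Efferocytosis is the uptake of dying cells. Phagocytes recognise phosphatidylserine on the dying cell either directly, as the tether Timd4 does, or through bridging proteins. Of these, Gas6 is bound by the TAM receptor kinases Mertk and Axl, and Pros1 by Mertk. Most of these genes are best known from tissue macrophages.

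Total counts per library lay between 80772922 and 101043568, so that 3 counts, the limit allowed by a count of 0, stood for 0.0268 to 0.0405 CPM (counts scaled to the library's total by the usual factor, with TMM normalization over the 21 libraries). These limits cover counting error only. All 8 monocyte and sort genes (among them Ptprc, Itgam, Ly6c2 and Ccr2) were above 3 counts in libraries of every group, with a summed level of 6547 to 11703 CPM per library. Against BM IMs, 5, 4 and 4 of them were called higher (adjusted p under 0.05) in primary tumor, lymph node and lung TIMs. At each site 2 were called lower. The shares of all genes were 33.3%, 20.2% and 13.9% higher and 28.6%, 17.2% and 11% lower. Lymph node replicate 1 and LN4K1 lung replicate 3 were least like the other libraries of their groups, with Pearson correlations across genes down to 0.900 and 0.926. The study's methods call the samples of a group technical replicates and the labels do not name animals, so p-values measure only the spread between these samples. In bulk libraries, fewer cells of a type and less RNA per cell cannot be told apart.

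Markers of other cells also differed between TIM and BM libraries. The 6 eosinophil genes summed to 537 to 1146 CPM in FVB BM and 433 to 1115 CPM in DBA2 BM libraries, against 3.13 to 7.02 CPM in primary tumor, 0.0242 to 0.994 CPM in lymph node and 6.52 to 74.2 CPM in lung libraries. Of the 8 neutrophil precursor genes 7 were called lower at each site, and in primary tumor TIMs the other one was called higher. The 5 lung epithelium genes summed to 137 to 877 CPM in primary tumor and 7.32 to 102 CPM in lung libraries, and to at most 2.60 CPM in any BM or lymph node library. The 10 squamous tumor epithelium genes summed to 59.7 to 105 CPM in primary tumor, 10.0 to 140 CPM in lymph node and 1.27 to 120 CPM in lung libraries, and to at most 2.79 CPM in BM libraries. Of 9 mature neutrophil genes 4 were called higher and 3 lower in primary tumor, 3 and 4 in lymph node and 2 and 2 in lung TIMs. Dendritic cell genes were called higher for 6, 4 and 3 of 8 at the primary tumor, lymph node and lung sites. In lung TIMs 1 dendritic cell gene was called lower. T and NK cell genes were called higher for 3 of 5, 1 of 4 and 4 of 5 tested. Over all genes tested, 33.3%, 20.2% and 13.9% were called higher at these sites, and 28.6%, 17.2% and 11% lower. The part of these other cells in the members' changes was not tested.

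The regions before the start of 4 members are shown because these genes changed in at least 1 comparison and are not all alike in the motifs they hold. They are the 250 bases before the RefSeq start (build GRCm38.p6), read 5′ to 3′ in the direction of the gene, for Stab1 (chr14:31168642-31168891, reverse strand), Axl (chr7:25788734-25788983, reverse strand), Olr1 (chr6:129507166-129507415, reverse strand) and Cd163 (chr6:124304401-124304650, forward strand). Capitals mark the core of the PU.1 site, GAGGAA or TTCCTC on the other strand, and in Olr1 also the AP-1 site, TGACTCA or TGAGTCA on the other strand. PU.1 is the lineage factor of macrophages and monocytes.
Stab1: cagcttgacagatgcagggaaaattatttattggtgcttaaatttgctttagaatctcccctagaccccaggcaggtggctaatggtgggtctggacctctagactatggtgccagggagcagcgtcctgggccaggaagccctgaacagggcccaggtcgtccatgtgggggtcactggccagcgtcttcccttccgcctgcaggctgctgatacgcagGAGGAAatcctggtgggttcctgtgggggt
Axl: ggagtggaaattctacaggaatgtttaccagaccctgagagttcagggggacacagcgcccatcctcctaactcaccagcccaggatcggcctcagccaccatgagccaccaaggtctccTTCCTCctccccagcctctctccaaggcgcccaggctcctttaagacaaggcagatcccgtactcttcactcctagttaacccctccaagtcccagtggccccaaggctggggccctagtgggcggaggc
Olr1: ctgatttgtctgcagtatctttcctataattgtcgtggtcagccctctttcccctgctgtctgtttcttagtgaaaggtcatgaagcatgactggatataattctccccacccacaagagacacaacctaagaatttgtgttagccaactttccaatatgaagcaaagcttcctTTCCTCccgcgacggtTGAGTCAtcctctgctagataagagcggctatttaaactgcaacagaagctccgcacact
Cd163: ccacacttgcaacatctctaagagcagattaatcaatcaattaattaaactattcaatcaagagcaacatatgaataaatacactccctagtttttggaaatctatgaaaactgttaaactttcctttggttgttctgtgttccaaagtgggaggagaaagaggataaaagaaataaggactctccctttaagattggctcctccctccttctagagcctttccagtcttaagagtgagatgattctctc
The PU.1 core began 30 bases before the start in Stab1, 130 bases before it in Axl and 76 bases before it in Olr1, where the AP-1 letters began at 60 bases. In Cd163 neither set of letters was found in this window. Of the 8 members with an entry in the RefSeq promoter table, 5 held the PU.1 core (Axl, Marco, Mrc1, Olr1 and Stab1), against 23.3% of all 32851 promoters in the table. The AP-1 letters were in 1 of the 8, Olr1, and in 4.46% of all promoters. These matches describe the sequence and were not read as bound sites.

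Of the 10 members, 8 changed in LN2E1 primary tumor TIMs against FVB BM IMs at an adjusted p under 0.05 in edgeR's quasi-likelihood test, 7 of them higher and Cd163 lower. Among all 14569 genes tested there, 61.9% were called, 33.3% higher and 28.6% lower. In lymph node TIMs 6 members changed, 5 higher and Cd163 lower, against 37.4% of 13273 genes, 20.2% higher and 17.2% lower. LN4K1 lung TIMs differed from DBA2 BM IMs in 2 members, Msr1 and Stab1, both higher, against 24.9% of 13624 genes, 13.9% higher and 11% lower. Msr1 and Stab1 were thus called higher in TIMs of all 3 sites, and both calls held in each of the 8 fits per comparison that left out 1 library. Fewer lymph node calls held in those fits: between 3 and 5 members were called, the lowest number without FVB BM replicate 1 or 2, where 25.0% and 24.5% of all genes were. Without lung replicate 3 the lung comparison called 5 members, beside 37.1% of all genes. The primary tumor and lymph node comparisons share the 3 FVB BM libraries.

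Groups did not overlap for 7 members in primary tumor TIMs, against 58.1% of all genes, for 5 in lymph node TIMs, against 42.9%, and for 3 in lung TIMs (Msr1, Stab1 and Marco), against 34.8%. At the stricter thresholds of the study's methods (adjusted p under 0.0001 and absolute log2 fold change above 1), edgeR called Msr1 and Stab1 in primary tumor TIMs, 2 of 10 members against 12.9% of all genes. It called 0 of 10 in lymph node TIMs (5.71% of all genes) and 0 in lung TIMs (2.97%), where 6 and 4 members had an unadjusted p under 0.05. At an adjusted p under 0.05 DESeq2 called 6 members in lymph node TIMs, beside 34.4% of all genes, and 4 in lung TIMs, beside 26.4%.

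**Figure D1:**
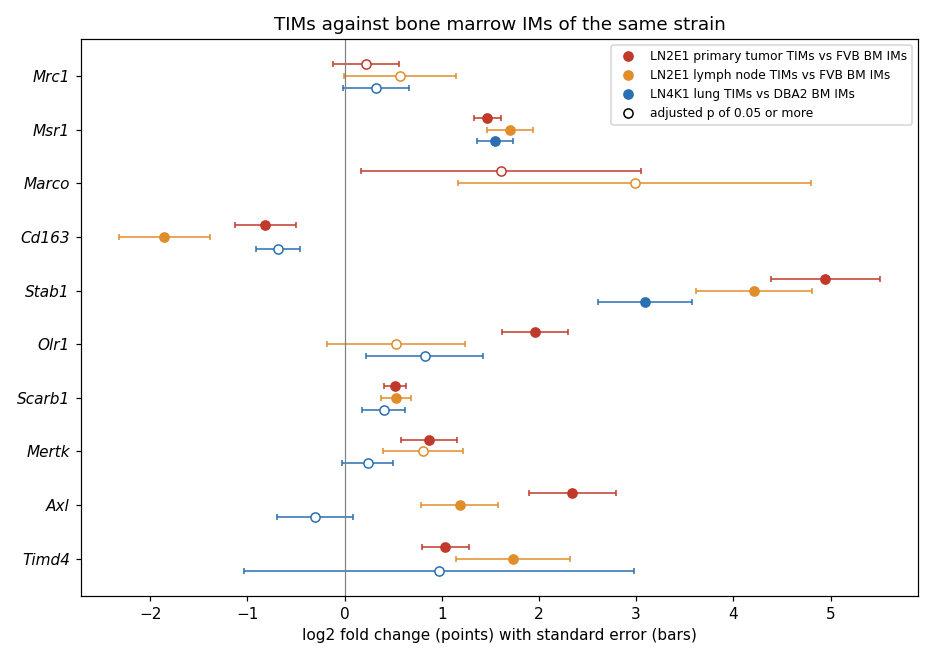
Log2 fold change with its standard error (bars) for the 10 members in LN2E1 primary tumor and lymph node TIMs against FVB BM IMs and in LN4K1 lung TIMs against DBA2 BM IMs, with open points where the adjusted p was 0.05 or more. Stab1 lies farthest to the right at all 3 sites and Cd163 lies left of 0 at all 3, and Marco is not drawn for the lung because all 3 DBA2 BM libraries were at 0 counts.

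Stab1 encodes stabilin-1, a large receptor of macrophages and sinusoidal endothelium that takes up acetylated lipoprotein and the matrix protein SPARC. Its level was 1.24, 0.367 and 1.22 CPM in the FVB BM libraries, and 31.3, 28.9, 49.6, 24.2 and 13.9 CPM in the primary tumor libraries. In the lymph node libraries it was 10.3, 32.9, 14.6, 11.7 and 18.4 CPM. Every library of either LN2E1 site was above every FVB BM library, the closest values being 1.24 and 10.3 CPM. Stab1 rose by 4.95 on the log2 scale in primary tumor TIMs (SE 0.57, edgeR adjusted p = 6.99e-05, 30.9-fold) and by 4.21 in lymph node TIMs (SE 0.60, edgeR adjusted p = 0.000422, 18.6-fold). Levels of the DBA2 BM libraries were 1.65, 1.11 and 0.486 CPM, close to those of the FVB BM libraries. The LN4K1 lung libraries held 13.2, 6.72, 5.51, 10.4 and 13.0 CPM, again with no overlap, and Stab1 rose by 3.09 on the log2 scale (SE 0.48, edgeR adjusted p = 0.00145). The primary tumor change exceeded the lung change by 1.87 (SE 0.67, edgeR adjusted p = 0.0503), just short of the threshold, and it passed the threshold in 4 of 16 fits that left out 1 library.

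Stab1 lies on chromosome 14 at 31139013 to 31168641 (GRCm38, reverse strand). Its exons overlap those of Nt5dc2 on the opposite strand in 112 bases, 1.09% of the exon length, and the libraries were not stranded. Since sinusoidal endothelium also uses Stab1, the 9 endothelial marker genes were summed: 7.91 to 15.2 CPM in FVB BM libraries, 60.5 to 83.5 CPM in primary tumor libraries, 70.7 to 130.0 CPM in lymph node libraries, 13.8 to 17.6 CPM in DBA2 BM libraries and 8.83 to 22.4 CPM in LN4K1 lung libraries. The sum was thus higher in the 2 LN2E1 sites, where 4 of 8 and 3 of 6 tested endothelial markers were called higher. It overlapped between lung TIMs and DBA2 BM IMs, where 2 of 8 were called higher. Beside these counts, 33.3%, 20.2% and 13.9% of all genes tested were called higher in primary tumor, lymph node and lung TIMs. Tek and Clec14a were at 0 in all 5 lymph node libraries. The part of endothelial RNA in the Stab1 result was not tested.

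Msr1 (scavenger receptor class A, also called CD204) takes up acetylated and oxidised lipoproteins, and it was the member with the highest level per length in every group. FVB BM libraries held 291, 303 and 241 CPM. Primary tumor libraries held 771, 733, 971, 773 and 658 CPM, and lymph node libraries 1226, 900, 531, 990 and 883 CPM. All 10 LN2E1 libraries were above all 3 FVB BM libraries, with lymph node replicate 3 the lowest of them. The log2 fold change of Msr1 was 1.47 in primary tumor TIMs (SE 0.14, edgeR adjusted p = 1.88e-05) and 1.70 in lymph node TIMs (SE 0.24, edgeR adjusted p = 0.000402). In DBA2 mice, BM libraries held 233, 279 and 248 CPM against 683, 665, 1077, 801 and 676 CPM in LN4K1 lung libraries. Lung replicate 3 was the highest of the lung libraries, no library overlapped, and Msr1 rose by 1.55 on the log2 scale (SE 0.19, edgeR adjusted p = 0.000292). The change in primary tumor TIMs minus that in lung TIMs was -0.06 (SE 0.22, edgeR adjusted p = 0.908).

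Marco, the other class A receptor measured and a marker of marginal zone and alveolar macrophages, was carried by single libraries. It was at 0.614, 1.44 and 0.402 CPM in the FVB BM libraries. Primary tumor libraries held 1.90, 3.53, 0, 7.03 and 0.140 CPM, and lymph node libraries 1.37, 28.3, 2.07, 0 and 0.665 CPM. Libraries at 0 counts and libraries above every BM library thus stood in the same group, and neither LN2E1 comparison passed the test (log2 fold change 1.61, SE 1.44, edgeR adjusted p = 0.360 in primary tumor TIMs and 2.99, SE 1.82, edgeR adjusted p = 0.235 in lymph node TIMs). All 3 DBA2 BM libraries held 0 counts of Marco. The 5 LN4K1 lung libraries held 1, 18, 1, 1171 and 137 counts, that is 0.0116, 0.190, 0.0135, 12.1 and 1.53 CPM, of which 2 were at or under the limit of 3 counts (edgeR adjusted p = 0.073). Without lung replicate 3 the adjusted p was 0.0428.

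Cd163, the receptor for haemoglobin bound to haptoglobin and a common marker of resident macrophages, was the 1 member called lower in TIMs, at both LN2E1 sites. Its level was 5.09, 6.35 and 12.4 CPM in FVB BM libraries and 3.65, 1.89, 1.82, 2.23 and 1.39 CPM in lymph node libraries. No lymph node library reached the lowest BM library, and Cd163 fell by 1.86 on the log2 scale (SE 0.47, edgeR adjusted p = 0.0111). This call was kept in 7 of 8 fits that left out 1 library, and was lost without FVB BM replicate 3. In primary tumor libraries the level was 3.67, 4.02, 5.68, 3.90 and 5.77 CPM, with 2 libraries between the BM values. The fall of 0.81 on the log2 scale (SE 0.31, edgeR adjusted p = 0.0441) was kept in 3 of 8 such fits, and without FVB BM replicate 3 the log2 fold change was -0.32. The level in DBA2 BM libraries was 9.99, 11.6 and 13.7 CPM and lung libraries 5.86, 6.94, 6.63, 10.8 and 8.43 CPM. Of the 5 lung libraries 4 were below every DBA2 BM library, with a log2 fold change of -0.68 that did not pass the test (SE 0.23, edgeR adjusted p = 0.0552).

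Mrc1, the mannose receptor CD206 and a common marker of alternatively activated macrophages, did not pass the test in any of the 6 comparisons. FVB BM libraries held 6.81, 16.8 and 10.9 CPM, primary tumor libraries 13.6, 11.3, 18.8, 16.4 and 7.63 CPM and lymph node libraries 29.9, 16.0, 3.17, 19.6 and 16.5 CPM. DBA2 BM libraries held 10.9, 19.1 and 15.9 CPM and lung libraries 11.3, 17.8, 35.5, 18.7 and 17.9 CPM. All 5 groups overlapped, with the highest value of the lymph node group in replicate 1 and that of the lung group in replicate 3, the libraries least like their groups. Log2 fold changes against BM IMs were 0.22 (SE 0.34) in primary tumor TIMs, 0.57 (SE 0.57) in lymph node TIMs and 0.32 (SE 0.34) in lung TIMs.

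**Figure D2:**
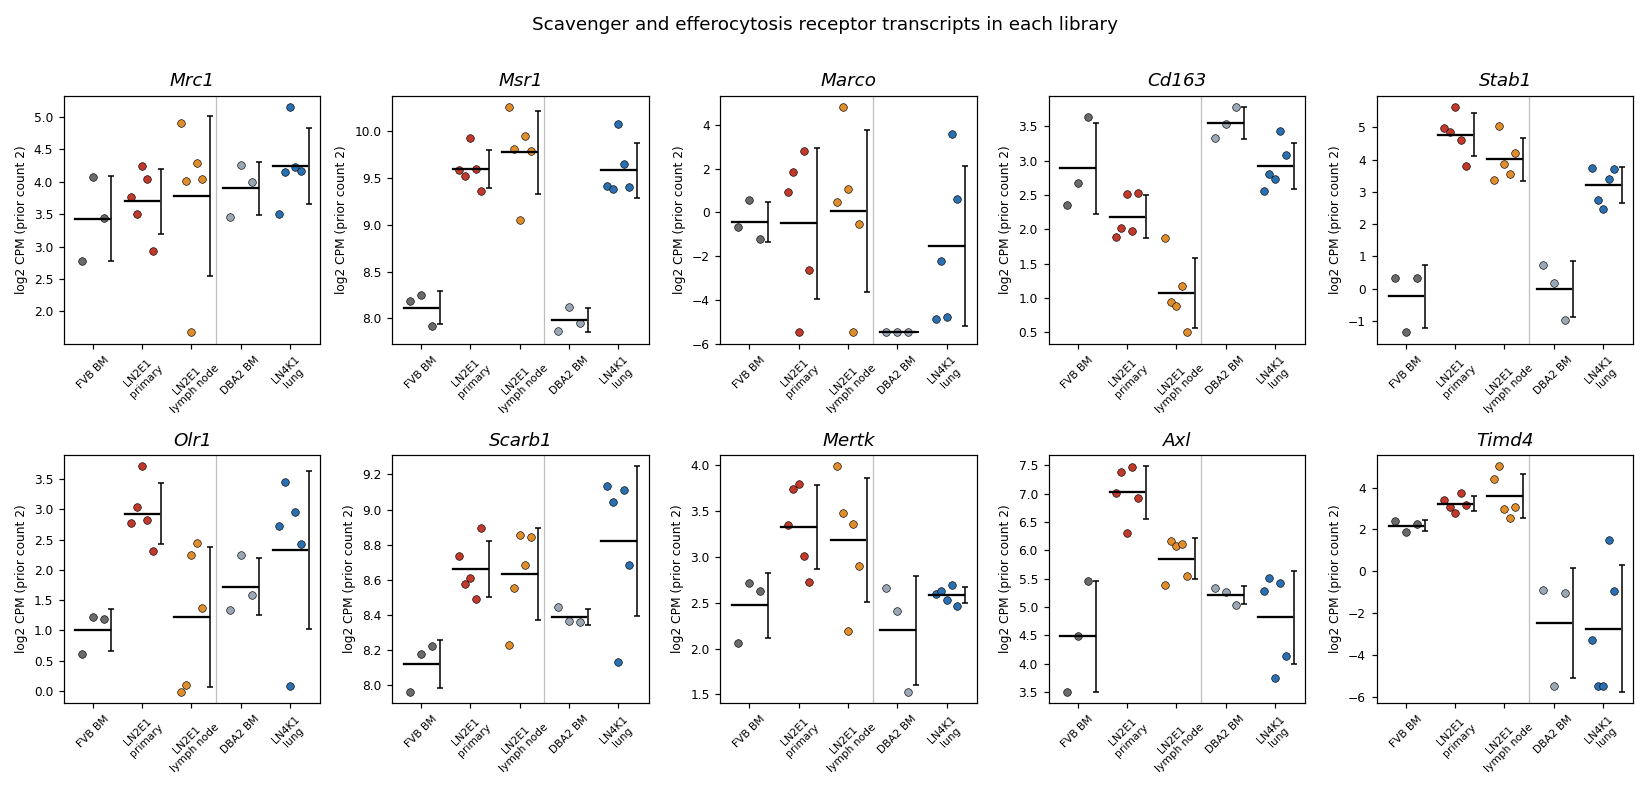
Level of each of the 10 members in each of the 21 libraries, as log2 CPM with a prior count of 2, by group, with the group mean (line) and the SD (bar at the right of each group). Msr1 and Stab1 show TIM libraries above all BM libraries of the same strain at every site, Timd4 is low in the DBA2 groups, and Marco spreads over the whole axis within the TIM groups.

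Of the lipoprotein receptors, Olr1 (LOX-1, which binds oxidised low-density lipoprotein) rose in primary tumor TIMs. It went from 1.5, 2.32 and 2.27 CPM in FVB BM libraries to 6.80, 8.16, 13.1, 7.06 and 4.96 CPM in primary tumor libraries. The groups did not overlap, and the log2 fold change was 1.96 (SE 0.34, edgeR adjusted p = 0.000847). Lymph node libraries held 0.969, 1.05, 4.72, 5.40 and 2.55 CPM, on both sides of the BM values, with a log2 fold change of 0.53 (SE 0.71, edgeR adjusted p = 0.607). Lymph node TIMs against primary tumor TIMs gave -1.44 (SE 0.51, edgeR adjusted p = 0.0968), so a difference between the 2 sites was not called. DBA2 BM libraries held 2.52, 4.72 and 2.98 CPM and lung libraries 6.56, 10.9, 1.04, 7.75 and 5.35 CPM. Lung replicate 3 was below every BM library and the other 4 above them, with a log2 fold change of 0.82 (SE 0.60, edgeR adjusted p = 0.362) that was 1.10 without that library (edgeR adjusted p = 0.0229).

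Scarb1 (SR-BI, which takes cholesterol esters from high-density lipoprotein) rose by a small amount at both LN2E1 sites. FVB BM libraries held 249, 289 and 298 CPM, primary tumor libraries 426, 380, 391, 359 and 476 CPM and lymph node libraries 299, 375, 463, 411 and 460 CPM. No library of either site was below a BM library, although lymph node replicate 1 exceeded the highest BM library by under 2 CPM. On the log2 scale Scarb1 rose by 0.52 in primary tumor TIMs (SE 0.11, edgeR adjusted p = 0.00299) and by 0.53 in lymph node TIMs (SE 0.16, edgeR adjusted p = 0.0248), the latter kept in 4 of 8 fits that left out 1 library. DBA2 BM libraries held 347, 329 and 328 CPM and lung libraries 562, 527, 279, 553 and 410 CPM. Lung replicate 3 was again the exception below the BM range, with a log2 fold change of 0.40 over all libraries (SE 0.22, edgeR adjusted p = 0.223) and 0.54 without it (edgeR adjusted p = 0.00675).

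Axl, a TAM kinase induced in inflamed tissue, was the efferocytosis receptor that differed between the LN2E1 sites. FVB BM libraries held 11.3, 22.6 and 44.1 CPM. Primary tumor libraries held 130, 167, 79.2, 177 and 122 CPM, and lymph node libraries 41.7, 71.8, 67.4, 69.3 and 46.7 CPM. The primary tumor libraries lay above all BM and all lymph node libraries, and lymph node replicate 1 lay below FVB BM replicate 3. Axl rose by 2.34 on the log2 scale in primary tumor TIMs (SE 0.45, edgeR adjusted p = 0.0016) and by 1.18 in lymph node TIMs (SE 0.40, edgeR adjusted p = 0.0402), the latter kept in 2 of 8 fits that left out 1 library.

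Lymph node TIMs against primary tumor TIMs of the same model called 1 of the 10 members, Axl, which fell by 1.18 on the log2 scale (SE 0.23, edgeR adjusted p = 0.00732). Of all 13488 genes tested, 11.7% were called, 6.15% higher and 5.55% lower, and 0.0297% passed the stricter thresholds, which no member did. The Axl call was kept in each of the 10 fits that left out 1 library. Cd163 also separated the 2 sites without overlap, as 14.4% of all genes did, with a log2 fold change of -1.06 (SE 0.35, edgeR adjusted p = 0.078). Its call depended on the fit, since it passed in 1 of 10 fits that left out 1 library and in 3 of 6 fits with another filter, set of groups, scaling, tool or block.

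In the DBA2 groups Axl did not separate. BM libraries of that strain held 40.3, 38.6 and 32.8 CPM and lung libraries 38.9, 45.8, 13.5, 42.9 and 17.5 CPM. Of the lung libraries 2 were above and 2 below the BM range, with a log2 fold change of -0.30 (SE 0.39, edgeR adjusted p = 0.628). The change in primary tumor TIMs minus the change in lung TIMs was tested in a fit of those 4 groups, and Axl was the 1 member called, with a difference of 2.66 on the log2 scale (SE 0.62, edgeR adjusted p = 0.00628). That difference was called for 26.5% of 15182 genes, 13.2% in this direction, and for 0.369% at the stricter thresholds, which no member passed, and Axl was called in each of the 16 fits that left out 1 library.

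Axl is also a gene of fibroblasts, and RNA of fibroblast genes moved with it. The 7 fibroblast markers (Col1a1, Col1a2, Col3a1, Dcn, Lum, Pdgfra and Pdgfrb) summed to 378 to 1134 CPM in primary tumor libraries, 12.2 to 108 CPM in lymph node libraries, 5.25 to 9.16 CPM in FVB BM libraries, 1.81 to 43.1 CPM in lung libraries and 0.0898 to 1.39 CPM in DBA2 BM libraries. All 7 were higher in primary tumor TIMs than in FVB BM IMs, beside 33.3% of all genes tested. In lymph node TIMs 5 of 5 tested were higher, beside 20.2% of all genes. Between lymph node and primary tumor TIMs 5 of 7 were lower in lymph node TIMs, beside 5.55% of all genes. Lum and Pdgfra were at 0 in all FVB BM libraries and Lum in all DBA2 BM libraries. Among primary tumor libraries, replicate 3 was lowest and replicate 4 highest both in Axl and in the fibroblast sum (378 and 1134 CPM). Among lymph node libraries, replicate 1 was lowest and replicate 2 highest in both (12.2 and 108 CPM). Lung libraries broke this order, since replicate 5 had the highest fibroblast sum of its group (43.1 CPM) and the second lowest Axl level. The part of fibroblast RNA in the Axl result was not tested.

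**Figure D3:**
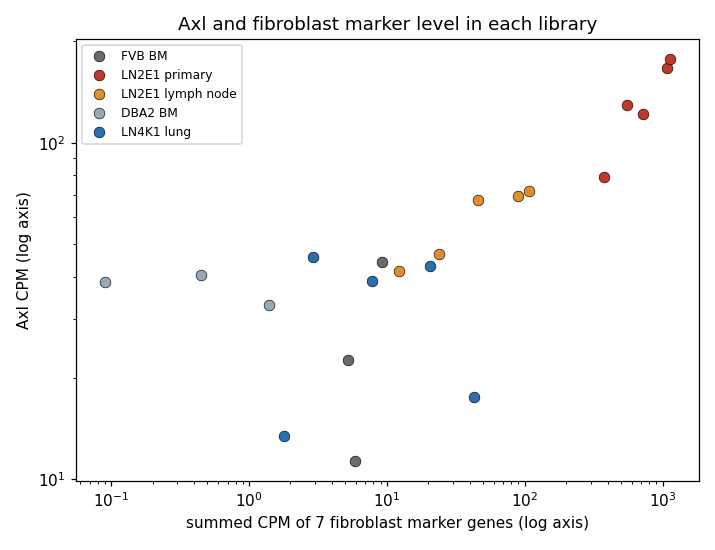
Axl level against the summed level of 7 fibroblast marker genes in each of the 21 libraries, both in CPM on log axes, coloured by group. The 5 primary tumor libraries lie at the upper right, from 378 to 1134 CPM of fibroblast markers, the 5 lymph node libraries lie between them and the BM libraries, and the 5 lung libraries do not follow that order.

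Mertk, the TAM kinase that macrophages use most for uptake of dying cells, also rose in primary tumor TIMs. FVB BM libraries held 4.16, 6.56 and 6.16 CPM and primary tumor libraries 10.2, 13.4, 13.9, 8.05 and 6.59 CPM. The lowest primary tumor library was only just above the highest BM library, and Mertk rose by 0.87 on the log2 scale (SE 0.29, edgeR adjusted p = 0.0249), a call kept in 6 of 8 fits that left out 1 library. Lymph node libraries held 15.9, 11.1, 4.56, 10.3 and 7.44 CPM, of which 4 were above the BM range, with a log2 fold change of 0.81 (SE 0.42, edgeR adjusted p = 0.160). DBA2 BM libraries held 6.31, 5.30 and 2.86 CPM and lung libraries 6.04, 6.14, 5.77, 6.45 and 5.51 CPM. The lung values lay close together and overlapped those of BM, with a log2 fold change of 0.24 (SE 0.26, edgeR adjusted p = 0.570).

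Timd4 (TIM-4), the phosphatidylserine tether of long-lived resident macrophages, differed between the strains in BM and in TIM libraries. FVB BM libraries held 5.30, 3.71 and 4.73 CPM, primary tumor libraries 10.4, 8.27, 6.87, 13.2 and 8.94 CPM and lymph node libraries 21.4, 32.4, 7.90, 5.85 and 8.51 CPM. No LN2E1 library overlapped the FVB BM libraries. On the log2 scale Timd4 rose by 1.04 in primary tumor TIMs (SE 0.24, edgeR adjusted p = 0.00399) and by 1.73 in lymph node TIMs (SE 0.59, edgeR adjusted p = 0.0413), the first kept in each of 8 fits that left out 1 library and the latter in 3 of 8. DBA2 BM libraries held 0.513, 0 and 0.465 CPM and lung libraries 0.0812, 0, 0, 2.79 and 0.502 CPM. With 0 counts in libraries of both groups, the log2 fold change of 0.97 had an SE of 2.0 and did not pass the test (edgeR adjusted p = 0.773). Without lung replicate 4 it was -1.25, so that its sign rested on that library.

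Naive BM IMs of the 2 strains were compared directly, and 2 of the 10 members were called, Timd4 and Marco, both lower in DBA2. Of 12905 genes tested, 21.1% were called and 9.57% lower. Timd4 fell by 3.78 on the log2 scale from FVB to DBA2 BM IMs (SE 0.99, edgeR adjusted p = 0.0308), a call kept in 2 of 6 fits that left out 1 library and lost in 2 of 5 fits with other settings. Marco was at 0 counts in all 3 DBA2 BM libraries against 54, 141 and 45 counts in FVB BM libraries, at least 26.5-fold lower against a limit of 3 counts per library (edgeR adjusted p = 0.00851), and this call was kept in each of 6 fits that left out 1 library and in 4 of 5 other fits, and lost when all 5 groups were fitted together. Olr1 and Scarb1 also had no overlap, both higher in DBA2, as 42% of all genes did in either direction, and did not pass the test (edgeR adjusted p = 0.157 and 0.076). FVB BM replicate 3 weighed on this comparison: without it 5 members were called, adding Axl, Cd163 and Scarb1 as higher in DBA2, while the share of all genes called went from 21.1% to 36.4%. Over all 21 libraries, Timd4 lay between 3.71 and 32.4 CPM in the 13 FVB libraries and between 0 and 2.79 CPM in the 8 DBA2 libraries, with no overlap.

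Stab2, the endothelial relative of Stab1, showed the opposite order of strains. It lay between 0 and 0.75 CPM in the 13 FVB libraries and between 17.9 and 49.4 CPM in the 8 DBA2 libraries. In BM IMs Stab2 was 5.77 higher in DBA2 on the log2 scale (SE 0.42, edgeR adjusted p = 0.000105), with a mean of 31.6 CPM against 0.583 CPM. The lung change of Stab2 was 0.17 on the log2 scale (edgeR adjusted p = 0.724), beside the rise of 3.09 for Stab1. Its exons overlap Gm16268 on the opposite strand in 1.61% of their length.

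Marco and Timd4 peaked in the same library of each TIM group: primary tumor replicate 4 (7.03 and 13.2 CPM), lymph node replicate 2 (28.3 and 32.4 CPM) and lung replicate 4 (12.1 and 2.79 CPM). Cd5l, a secreted scavenger protein of tissue macrophages named here after its values were seen, also peaked there, at 2.42, 12.6 and 6.52 CPM. Elsewhere in these groups Cd5l was between 0 and 4.02 CPM, and in FVB BM libraries it was 8.47, 11.2 and 10.6 CPM. The 12 tissue macrophage markers, which include Cd5l, summed to 1365 to 1547 CPM in FVB BM libraries, 2343 to 3041 CPM in primary tumor libraries, 2383 to 3787 CPM in lymph node libraries, 902 to 2110 CPM in DBA2 BM libraries and 3956 to 5599 CPM in lung libraries. Most of this sum was Apoe, a lipid carrier of macrophages, at 1052 to 1257, 2006 to 2627, 1990 to 3381, 674 to 1811 and 3569 to 5224 CPM in the same order. The other 11 markers summed to 249.9 to 379, 304 to 482, 269 to 406, 228 to 299.9 and 255 to 406 CPM. In primary tumor replicate 4, lymph node replicate 2 and lung replicate 4, where Cd5l peaked, all 12 markers summed to 2343, 2385 and 3956 CPM. The first and last were the lowest sums of their groups, and the lowest lymph node sum was 2383 CPM. Since Apoe made up most of each sum, these values do not give the order of the libraries in the other 11 markers. Of 12 tested in primary tumor TIMs 3 were called higher and 3 lower, of 11 in lymph node TIMs 4 and 2, and of 12 in lung TIMs 4 and 2, the latter being C1qc (mean of 5.85 against 11.3 CPM) and Folr2 (25.6 against 37.1 CPM). Siglec-F+ cells, which include alveolar macrophages, had been gated out. Of 12 alveolar macrophage markers, 4 of 10 tested were called higher and 2 lower in primary tumor TIMs. In lymph node TIMs 2 were higher and 2 lower of 8 tested, and in lung TIMs 2 and 2 of 10. Beside both lists, the shares of all genes called higher in primary tumor, lymph node and lung TIMs were 33.3%, 20.2% and 13.9%. The shares called lower were 28.6%, 17.2% and 11%. Among the tissue macrophage markers, Lyve1 was at 0 in all DBA2 BM libraries. The part of macrophages in the Marco and Timd4 values was not tested.

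Levels per exon length (mean CPM per kb, with SD) put the members in a similar order in every group. Msr1 led with 43.9 ± 5.22 in FVB BM IMs, 123 ± 18.3 in primary tumor TIMs, 143 ± 39.4 in lymph node TIMs, 39.9 ± 3.70 in DBA2 BM IMs and 123 ± 27.5 in lung TIMs. Scarb1 was next in all 5 groups, from 32.8 ± 3.08 in FVB BM IMs to 54.9 ± 14.2 in lung TIMs, and in DBA2 BM IMs its 39.4 ± 1.29 was within the spread of Msr1. Axl followed these in all 5 groups, from 5.17 ± 3.31 in FVB BM IMs to 26.8 ± 7.78 in primary tumor TIMs. The other 7 members lay lower in every group and most neighbours among them were within the larger SD of the pair. Within those 7, Timd4 had rank 4 in the 3 FVB groups (2.11 ± 0.37 in FVB BM IMs) and rank 10 in lung TIMs (0.311 ± 0.553). Stab1 went from rank 10 in FVB BM IMs (0.0917 ± 0.0485) to rank 5 in primary tumor TIMs (2.87 ± 1.27). Cd163 had rank 10 at both LN2E1 sites (0.844 ± 0.188 and 0.402 ± 0.158) and rank 5 in DBA2 BM IMs (2.15 ± 0.342).

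**Figure D4:**
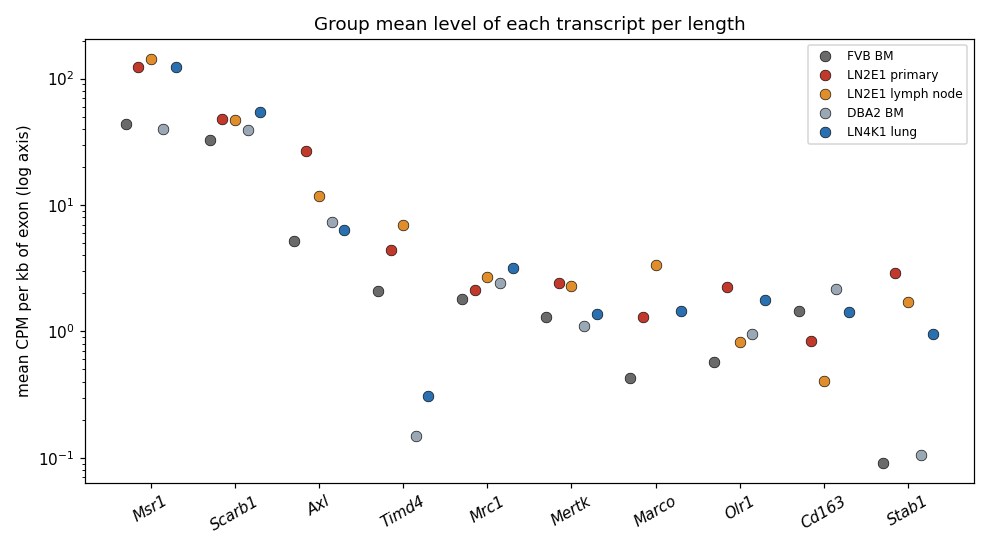
Mean CPM per kb of exon of each member in the 5 groups, on a log axis. Msr1, Scarb1 and Axl lead in that order in every group, Stab1 spans from 0.0917 in FVB BM IMs to 2.87 in primary tumor TIMs, and Marco has no point for DBA2 BM IMs, where it was at 0.

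For the 5 members whose group means of log2 CPM spanned more than 2, the genes nearest in profile over the 5 groups were found by the root mean square difference of centred group means. The nearest gene to Stab1 was Cxcl16 (difference 0.11), itself a scavenger receptor for oxidised lipoprotein and phosphatidylserine, followed by Prdm1 (0.23) and Hspa1a (0.27). Cxcl16 had means of 3.56 CPM in FVB BM, 127 CPM in primary tumor, 85.7 CPM in lymph node, 4.12 CPM in DBA2 BM and 39.4 CPM in lung libraries, and 18.3% of its exon length overlaps Zmynd15 on the opposite strand. Cd163 lay nearest to Fbxw4 (0.14), Zbtb45 (0.16) and Vps13c (0.17), and Axl to Twsg1 (0.29), Clcn7 (0.31) and Pxn (0.31). Marco and Timd4 had looser neighbours, Fpr1 (0.52), Rnf11 (0.72) and Timp2 (0.75) for Marco and Pde2a (0.70), Maged1 (0.98) and Tceanc2 (1.02) for Timd4.

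Among 19 other scavenger receptors, 15 of 18 tested were higher and 2 lower in primary tumor TIMs, 8 higher and 2 lower of 14 in lymph node TIMs, and 9 higher and none lower of 14 in lung TIMs. Their median log2 fold change was 2.18, 1.43 and 0.71, beside 0.08, -0.04 and 0.03 over all genes tested and 1.25, 1.0 and 0.61 over the 10 members. For this list and those that follow, 33.3%, 20.2% and 13.9% of all genes tested were called higher in primary tumor, lymph node and lung TIMs. Called lower were 28.6%, 17.2% and 11%. Cd36, which takes up oxidised lipoprotein and fatty acids, rose by 4.39 on the log2 scale in primary tumor TIMs (SE 0.32), by 6.08 in lymph node TIMs (SE 0.30) and by 2.20 in lung TIMs (SE 0.27), and was 1.68 higher in lymph node than in primary tumor TIMs (SE 0.24, edgeR adjusted p = 0.00196). Cxcl16 rose by 5.13 (SE 0.23), 4.59 (SE 0.35) and 3.18 (SE 0.24) on the log2 scale at the same sites. Colec12 and Scarb2 were called higher at all 3 sites as well, with log2 fold changes of 1.96, 2.12 and 1.61 for Colec12 and 0.32, 0.76 and 0.54 for Scarb2.

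Of 18 bridging ligands and other engulfment receptors, 9 of 17 tested were higher in primary tumor TIMs, 7 of 16 were higher and 1 lower in lymph node TIMs, and 6 of 15 were higher and 2 lower in lung TIMs, with medians of 0.89, 0.68 and 0.02. Pros1, a ligand of Mertk, rose at all 3 sites, by 1.16, 1.52 and 1.49 on the log2 scale (edgeR adjusted p = 0.000313 in lung). Gas6, a ligand of Mertk and Axl, was low (means of 0.388 to 6.33 CPM) and was not called at any site. Thbs1, the bridge to Cd36 and integrins, rose from 510 to 4960 CPM in primary tumor TIMs (log2 fold change 3.25, SE 0.43) and to 2809 CPM in lymph node TIMs (2.45, SE 0.43), and in lung TIMs its log2 fold change was -0.48 (edgeR adjusted p = 0.388). As for Axl and 26.5% of all genes, the difference between primary tumor and lung changes of Thbs1 passed the test (3.75, SE 0.59, edgeR adjusted p = 0.00068). Cd300lf, a phosphatidylserine receptor of myeloid cells, rose by 2.14 (SE 0.15) in primary tumor TIMs and by 2.97 (SE 0.42) in lung TIMs on the log2 scale. Itgb3 fell by 3.09 (SE 0.70) and C1qc by 1.02 (SE 0.29) in lung TIMs, and Mfge8 fell by 0.78 (SE 0.19) in lymph node TIMs.

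Receptor shedding genes are of interest because Adam10 and Adam17 cut Mertk, Axl and Cd163 from the cell surface. The list also holds the metalloproteinase inhibitors Timp1 and Timp3, so its counts do not stand for more or less shedding. All 7 of this list rose in primary tumor TIMs, 5 of 7 in lymph node TIMs and 3 of 7 in lung TIMs, with medians of 2.38, 1.31 and 1.09. Of all genes tested, 33.3%, 20.2% and 13.9% were called higher at these sites. Adam17 had log2 fold changes of 1.51 and 1.67, both called, in primary tumor and lymph node TIMs, and its log2 fold change in lung TIMs was 0.29 (edgeR adjusted p = 0.349). Timp1, an inhibitor of metalloproteinases, was at means of 0.126 and 0.0866 CPM in FVB and DBA2 BM IMs and at 64.3, 25.9 and 18.8 CPM in primary tumor, lymph node and lung TIMs.

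Nuclear receptors and lipid exporters handle the cholesterol of engulfed cells. Of 12 such genes, 8 rose in primary tumor TIMs, 9 in lymph node TIMs and 2 in lung TIMs, and none fell, with medians of 1.42, 1.27 and 0.34. Abca1, the cholesterol exporter, rose at the LN2E1 sites, with log2 fold changes of 4.36 (SE 0.39) and 4.13 (SE 0.28), and in lung TIMs its log2 fold change was 1.48 (edgeR adjusted p = 0.0699). The difference between its primary tumor and lung changes was 2.90 (SE 0.63, edgeR adjusted p = 0.00426). Pparg, a nuclear receptor that senses lipids, rose by 3.32 (SE 0.30) on the log2 scale in lymph node TIMs.

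Of 12 eat-me, do-not-eat-me and find-me genes, 8 were higher and 1 lower in primary tumor TIMs, 6 of 11 and 1 of 11 in lymph node TIMs, and 4 of 12 and 1 of 12 in lung TIMs. The lower gene was Cd24a each time, a do-not-eat-me signal, which fell by 1.64 (SE 0.26), 2.26 (SE 0.29) and 1.84 (SE 0.18) on the log2 scale. The UDP receptor P2ry6 rose by 2.18 (SE 0.21), 1.71 (SE 0.38) and 0.84 (SE 0.24). Among 16 genes of the engulfment machinery, 10 were higher and 1 lower in primary tumor TIMs, 8 and 3 of 15 in lymph node TIMs and 4 and 1 of 15 in lung TIMs. Of all genes tested at these sites, 33.3%, 20.2% and 13.9% were higher and 28.6%, 17.2% and 11% lower. Rac2, a GTPase of the haematopoietic cytoskeleton, fell at each site, by 0.88 (SE 0.10), 0.72 (SE 0.11) and 0.33 (SE 0.11), and Dock2, its exchange factor, rose by 1.13 (SE 0.22) and 1.33 (SE 0.27) at the LN2E1 sites.

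**Figure D5:**
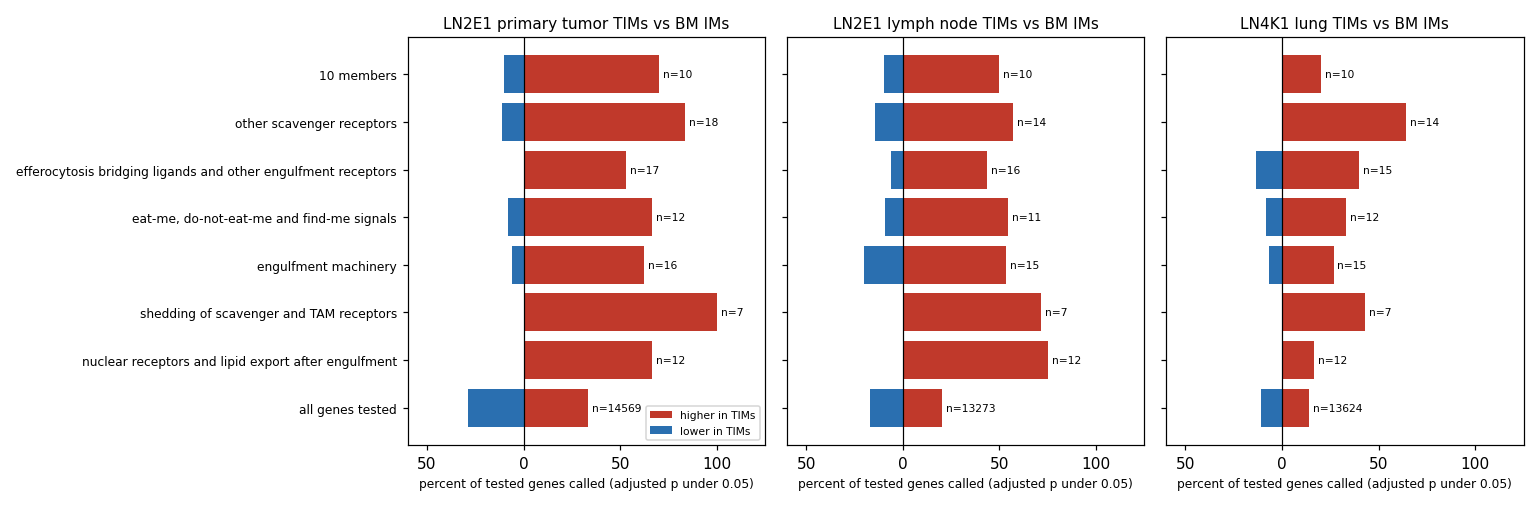
Percent of tested genes called higher (right of 0) and lower (left of 0) at an adjusted p under 0.05 in TIMs against BM IMs of the same strain, for the 10 members, 6 lists of related genes and all genes tested, with the number tested (n) beside each bar. All 7 genes of the shedding list, the inhibitors Timp1 and Timp3 included, are higher in primary tumor TIMs. The nuclear receptor and lipid export list falls from 9 of 12 in lymph node TIMs to 2 of 12 in lung TIMs.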

How the data were processed

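The deposited values are raw read counts per gene symbol. The authors trimmed adapters with BBDuk (BBMap V37.99), aligned read pairs to mm10 with BBMap, sorted with SAMtools 1.8 and counted with featureCounts 1.5.2 of Subread, per the methods and the submitters' processing notes, which give no further settings. Libraries were made without strand by low-input amplification, so counts hold amplification copies and overlapping genes on opposite strands share reads.

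All 21 libraries were grouped by their labels, and every column had a sample. edgeR 4.0.16 (with limma 3.58.1, under R 4.3.3) tested the counts: TMM scaling, filterByExpr with a minimum count of 10 and total of 15, the robust quasi-likelihood test and Benjamini-Hochberg adjustment over all genes tested, with calls at an adjusted p under 0.05. Each pair of groups was fitted alone, and the interaction in its 4 groups. SEs were taken from the fold change and its F value and are approximate. The fit was tested on simulated counts first. Alternatives were DESeq2 1.42.0, its size factors, other filters, all 5 groups in one fit, the study's thresholds, a replicate block and each library left out. The 10 members and the gene lists were chosen with earlier results of these data known. Named were all members, up to 2 genes per list, comparison and direction with the largest change among called genes above a mean log2 CPM of 3, and the 3 nearest profiles. Colec12, Scarb2, Pros1, Gas6, Adam17, Timp3 and Cd5l were named for their role outside that rule where it did not select them. Exon lengths and overlaps came from GENCODE M21 on GRCm38. Some genes of the lists are not reported here. Same-numbered replicates did not vary together (17 pairs, r from -0.100 to 0.0573), so numbers were not taken as pairs.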

Additional observations from a re-analysis of the deposited data

Results flagged for a closer look

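In the groups of 5, the gap of the highest or lowest library to its nearest neighbour was compared with the range of the group for each member. Of 30 such groups 3 passed, where chance alone passes about 1 in 20. They were Marco in lymph node TIMs (replicate 2 at 28.3 CPM), Marco in LN4K1 lung TIMs (replicate 4 at 12.1 CPM) and Timd4 in LN4K1 lung TIMs (replicate 4 at 2.79 CPM). The 2 lung values are from the same library.

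The change of Axl differed between primary tumor TIMs and LN4K1 lung TIMs by 2.66 on the log2 scale in a test of the difference itself (edgeR adjusted p = 0.00628). Strain, cell line and site differ between those arms and cannot be told apart.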

How the results depend on the processing

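Across single genes, 2107 log2 fold changes under alternative settings kept direction and side of the threshold, 24 newly passed it, 227 no longer did and 34 had the other sign. These 34 were of members, in 14 results that were not called with either sign. Leaving out 1 library gave log2 fold changes of -0.028 to 0.62 for Mrc1 in primary tumor TIMs and of -0.030 to 0.48 for Mertk and -1.25 (without lung replicate 4) to 1.46 for Timd4 in lung TIMs. Between lymph node and primary tumor TIMs they were -1.29 (without lymph node replicate 2) to 2.22 for Marco, -0.076 to 0.084 for Scarb1 and -0.31 to 0.10 for Mertk, and between strains -0.23 to 0.57 for Stab1 and -0.45 to 0.068 for Mertk. In the interaction they were -0.43 to 0.28 for Mrc1, -0.15 to 0.080 for Msr1, -0.40 to 0.38 for Cd163, -0.0054 to 0.22 for Scarb1 and -0.43 to 2.29 for Timd4. With the replicate block, Olr1 in lymph node TIMs was at -0.25 and Timd4 in lung TIMs at -4.08, against 0.53 and 0.97 without it. At the study's thresholds (adjusted p under 0.0001 and absolute log2 fold change above 1), edgeR called 2 members in primary tumor TIMs and 0 in lymph node TIMs, 0 in lung TIMs, 0 between lymph node and primary tumor TIMs, 0 between strains and 0 in the interaction, where 6, 4, 3, 3 and 3 had an unadjusted p under 0.05. DESeq2 called 4 members in lung TIMs, 3 between lymph node and primary tumor TIMs and 3 in the interaction, beside 26.4%, 16.4% and 26.0% of all genes. Requiring 10 counts in every library gave 2 between lymph node and primary tumor TIMs, 0 between strains (Marco and Timd4 were then not tested) and 2 in the interaction. Fitting all 5 groups together gave 2 between lymph node and primary tumor TIMs and 0 between strains, beside 14.3% and 10.4% of all genes. No filter gave 1 between strains, beside 15.2%, and DESeq2 size factors gave 2 in the interaction, beside 26.1%. The cause of these differences was not tested. Leaving out 1 library gave 6 to 8 members in primary tumor TIMs, 3 to 5 in lymph node TIMs (3 without FVB BM replicate 1 or 2), 2 to 5 in lung TIMs (5 without replicate 3), 1 to 2 between lymph node and primary tumor TIMs (2 without lymph node replicate 1 or 4), 1 to 5 between strains (5 without FVB BM replicate 3, 1 without FVB BM replicate 1 or 2 or DBA2 BM replicate 1 or 3) and 1 to 2 in the interaction (2, adding Stab1, without DBA2 BM replicate 3, FVB BM replicate 3, primary tumor replicate 5 or lung replicate 1). Over all genes those fits called, in the same order, 51.3% to 62.3%, 24.5% to 45.8%, 15.1% to 37.1%, 6.54% to 16.2%, 8.4% to 36.4% and 17.5% to 31.0%. With the replicate number as a block, 7, 4, 2, 1, 2 and 1 members were called in the order above, and over all genes 5954 in place of 9025 in primary tumor TIMs, 1324 in place of 3389 in lung TIMs and 533 in place of 1578 between lymph node and primary tumor TIMs. Own-numbered libraries were the best match in 5 of 17 pairs, and in 0 of 5 pairs of lymph node and primary tumor TIMs. The labels do not name animals, and this check cannot tell whether same-numbered samples of those 2 sites came from the same mouse. Marco, and Timd4 in DBA2, had some libraries at or under 3 counts, where depth limits the value. Other libraries of the same group lay well above, as for Marco with 0 to 2133 counts in lymph node TIMs and 1 to 1171 in lung TIMs.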
